A study of Mus musculus with 6 samples.

Results

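The 10 genes described here are those that mark the balance between epithelial and mesenchymal states: 6 transcription factors (Snai1, Snai2, Twist1, Zeb1, Zeb2 and Prrx1), the mesenchymal proteins Cdh2 and Vim, and the epithelial adhesion proteins Cdh1 and Epcam. They were chosen by symbol, and all 10 were found among the 18988 rows of the deposited expression table. RNA came from the corpus, the main acid-producing region of the mouse stomach, in C57BL/6 animals. The control group was 3 Ras;APC FF mice (replicates 1 to 3) and the other group 3 PGC;Ras;APC FF mice (replicates 4 to 6), with 1 mouse for each library. Both groups thus carry Ras;APC FF, and the comparison is about the PGC component. The labels do not spell out PGC, Ras or FF, and name neither the cells in which an allele was altered nor an age, an induction scheme or a time point. The series' title speaks of gastric cancer induced by successive oncogenic activation.

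Epithelial-mesenchymal transition (EMT) is a programme in which epithelial cells lose contact with their neighbours and take on traits of migratory mesenchymal cells. Its transcription factors, of the Snail, Twist, Zeb and Prrx families, repress epithelial genes such as Cdh1 (E-cadherin), in part by binding E-box motifs in promoters. A switch from E-cadherin to N-cadherin (Cdh2) and gain of vimentin (Vim) are its usual signs. The corpus wall holds glands, fibroblasts, vessels, nerves and muscle, and stromal cells normally express Vim, Zeb and Prrx genes. In RNA from whole tissue, fewer cells of a type and less RNA per cell cannot be told apart.

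Values are FPKM, fragment numbers scaled to gene length and library size, so levels can be compared between genes. A level written as mean ± SD is over the 3 mice of a group, control before PGC;Ras;APC FF. Each library had 11465 to 12407 genes at or above 1 FPKM. Defining genes of the corpus were abundant in all libraries: the parietal proton pump subunit Atp4b had 723.3 to 4614 FPKM, and the pepsinogen gene Pgc 16059 to 194208. PGC;Ras;APC FF replicate 6 was the lowest library for both, and its log2 values correlated with those of the controls across genes at r = 0.904 to 0.909, against 0.965 to 0.981 for replicates 4 and 5. Control replicate 3 had 13.15 FPKM of the Y-linked gene Eif2s3y and 0 of Xist, while the other 5 libraries had 0 and 3.58 to 6.19, so the sexes were not balanced. Values without replicate 6 and without replicate 3 are therefore given for the tested members, and values without replicate 6 for gene lists that it moved.

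RefSeq promoter windows were found for 6 of the 10 members. Among these, the windows of Epcam and Snai1 hold the E-box letters that Snail and Zeb factors are known to bind. Both are shown because Epcam had the largest difference of the 10 and Snai1 is the most abundant of the 6 factors. Each window runs from 250 bases before to 50 after the RefSeq start (GRCm38.p6, the assembly of mm10), 5′ to 3′ on the gene's strand, with CACCTG or its reverse complement CAGGTG in capitals. The Epcam window is chr17:87635729-87636028 and the Snai1 window chr2:167537945-167538244, both on the plus strand.
Epcam promoter: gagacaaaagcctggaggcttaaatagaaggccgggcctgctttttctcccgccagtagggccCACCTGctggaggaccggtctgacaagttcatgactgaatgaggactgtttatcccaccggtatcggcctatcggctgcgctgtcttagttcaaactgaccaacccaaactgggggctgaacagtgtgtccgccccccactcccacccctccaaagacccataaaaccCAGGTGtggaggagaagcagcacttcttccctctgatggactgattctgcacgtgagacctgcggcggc
Snai1 promoter: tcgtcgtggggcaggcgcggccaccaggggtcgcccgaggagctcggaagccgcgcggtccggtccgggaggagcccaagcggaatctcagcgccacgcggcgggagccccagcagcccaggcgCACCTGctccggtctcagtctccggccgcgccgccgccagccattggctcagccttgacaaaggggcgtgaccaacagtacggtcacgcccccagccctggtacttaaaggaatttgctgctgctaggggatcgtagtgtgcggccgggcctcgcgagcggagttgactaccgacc
Counted from the start, the motifs begin at -187 and -19 in Epcam and at -126 in Snai1. The windows of Prrx1, Twist1, Vim and Zeb2 held neither spelling. No window was available for Cdh1, Snai2, Zeb1 and Cdh2, so their promoters were not searched. The motif is common: 20.2% of 32851 promoter windows of this length held it at least once, and 2.88% held 2 or more. A match describes the letters and does not show binding.

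**Figure D1:**
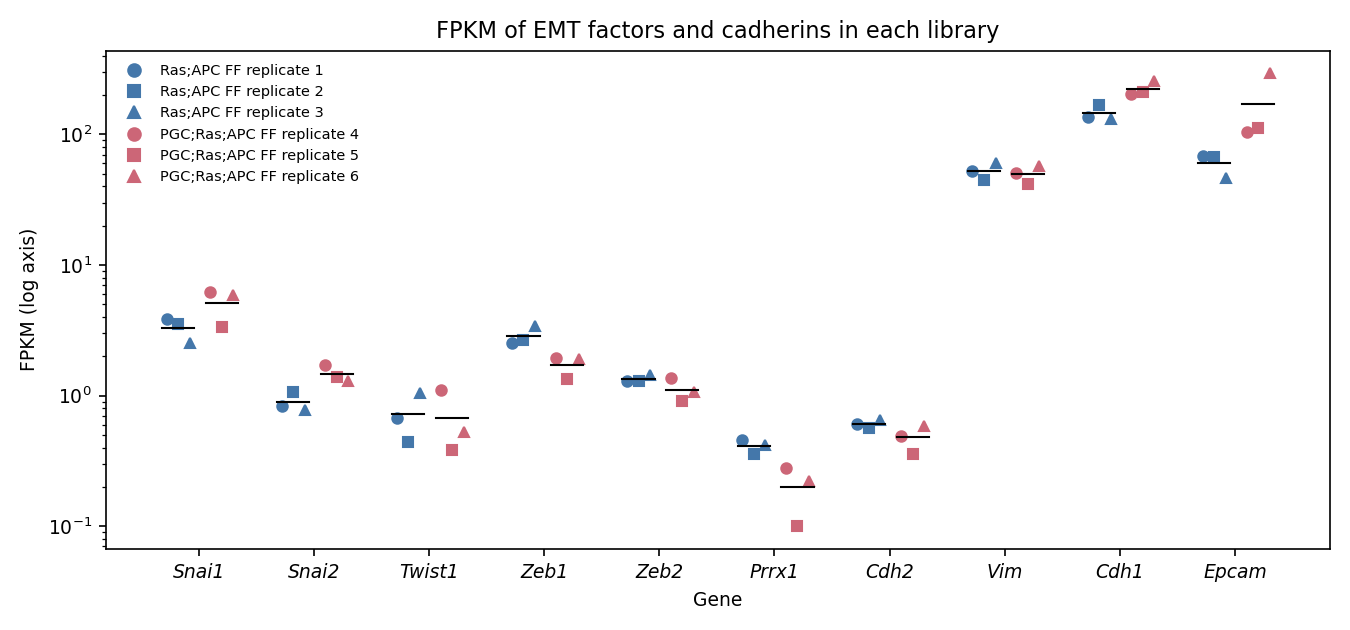
FPKM of each of the 10 genes on a log axis, by library, with blue symbols for Ras;APC FF, red symbols for PGC;Ras;APC FF and black lines for group means (3 mice each). Cdh1 and Epcam sit above Vim in every PGC;Ras;APC FF library, the 6 factors lie between 0.10 and 6.25 FPKM, and Cdh2 stays below 1 FPKM throughout.

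The epithelial pair stood highest among the members in PGC;Ras;APC FF corpus. Cdh1, the E-cadherin of adherens junctions (chromosome 8, 106603351 to 106670246, plus strand), was at 135.43, 166.91 and 131.79 FPKM in control replicates 1 to 3 and at 204.32, 210.84 and 254.28 in replicates 4 to 6. Every PGC;Ras;APC FF library was thus above every control, and the group means were 144.7 ± 19.3 and 223.1 ± 27.2, a ratio of 1.54. Epcam, a homophilic adhesion protein of simple epithelia (chromosome 17, 87635979 to 87651129, plus strand), was at 68.55, 66.57 and 46.28 FPKM in the control mice against 104.05, 111.69 and 293.21 in replicates 4 to 6. The groups again did not overlap, and replicate 6 lay far above the rest. Its means were 60.5 ± 12.3 and 169.7 ± 107.1 FPKM, a ratio of 2.81.

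Neither gene passed the test across all genes. On the log2(FPKM + 1) scale Cdh1 differed by 0.62 ± 0.17 (SE, 95% interval 0.23 to 1.01, limma adjusted p = 0.0857) and Epcam by 1.32 ± 0.39 (0.42 to 2.22, limma adjusted p = 0.0901). Of 11857 genes tested, 18 were called at an adjusted p under 0.05, or 0.152%, and none of the 7 members tested was among them. A separation of all libraries in the upward direction was common, at 42.7% of tested genes, and Cdh1 and Epcam show no more than that. The median tested gene itself was 0.26 higher, a shift that median-of-ratios scaling moved to -0.0071. After that scaling Cdh1 was higher by 0.31 and Epcam by 1.01. Without replicate 6 Epcam differed by 0.85 and passed (limma adjusted p = 0.0408), where 7.17% of 11600 tested genes were called higher. Cdh1 then differed by 0.53 and did not pass (limma adjusted p = 0.0581). Over all alternatives the limma adjusted p ran from 0.0137 to 0.307 for Cdh1 and from 0.0122 to 0.246 for Epcam. With limma's array weights, which gave replicate 6 the least weight, Cdh1 (0.50), Epcam (0.76), Snai2 (0.46) and Zeb1 (-0.41) passed, but so did 29.7% of tested genes on the higher and 3.11% on the lower side.

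The mesenchymal pair did not separate the groups. Vim, the intermediate filament protein of mesenchymal cells (chromosome 2, 13573927 to 13582826, plus strand), was at 52.61, 44.78 and 60.79 FPKM in the control mice against 50.22, 41.92 and 57.73 in replicates 4 to 6. The groups covered nearly the same range, with means of 52.7 ± 8.01 and 49.96 ± 7.91. The log2 difference was -0.08 ± 0.17 (SE), with a 95% interval of -0.48 to 0.33 (limma adjusted p = 0.749). After median-of-ratios scaling it was -0.39 (limma adjusted p = 0.169, from 0.115 to 0.919 over all alternatives), and its sign turned without replicate 3 (0.03) or replicate 5 (0.04). Cdh2, the N-cadherin of neural and mesenchymal cells (chromosome 18, 16588877 to 16809246, minus strand), was at 0.61, 0.56 and 0.65 FPKM in the control mice against 0.49, 0.36 and 0.59 in replicates 4 to 6. It stayed under 1 FPKM in all 6 libraries and so was below the test's filter of 1 FPKM in at least 3 libraries. The groups overlapped (ratio of means 0.791, exact two-sided permutation p = 0.2, n = 3 each, where 0.1 is the smallest possible).

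The Snail genes were on the higher side. Snai1, encoding the zinc finger repressor Snail (chromosome 2, 167538195 to 167542814, plus strand), was at 3.84, 3.56 and 2.51 FPKM in the control mice against 6.25, 3.33 and 5.85 in replicates 4 to 6. Replicate 5 lay within the control range, so the groups overlapped. The means were 3.30 ± 0.701 and 5.14 ± 1.58 FPKM (log2 difference 0.49 ± 0.23 SE, limma adjusted p = 0.16). Snai2, encoding the related repressor Slug (chromosome 16, 14705852 to 14709385, plus strand), was at 0.83, 1.06 and 0.77 FPKM in the control mice against 1.71, 1.40 and 1.29 in replicates 4 to 6. All 3 PGC;Ras;APC FF libraries exceeded all controls, with means of 0.887 ± 0.153 and 1.47 ± 0.218 (log2 difference 0.39 ± 0.13 SE, limma adjusted p = 0.101). Snai2 entered the test through the PGC;Ras;APC FF libraries, since only 1 control reached 1 FPKM, and its separation is therefore not counted as support. Under the 3 other scalings the differences were 0.19 to 0.24 for Snai1 and 0.20 to 0.26 for Snai2. Before such scaling the median tested gene was itself 0.26 higher.

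The Zeb genes were on the lower side. Zeb1, a zinc finger and homeobox repressor (chromosome 18, 5591860 to 5775467, plus strand), was at 2.52, 2.65 and 3.44 FPKM in the control mice against 1.94, 1.34 and 1.90 in replicates 4 to 6. Every PGC;Ras;APC FF library was below every control, an order found in 5.47% of tested genes. The means were 2.87 ± 0.498 and 1.73 ± 0.336 FPKM, and the log2 difference of -0.51 ± 0.16 (SE, 95% interval -0.87 to -0.14) missed the threshold (limma adjusted p = 0.0925). An unadjusted limma p under 0.05 on the lower side was held by 3.63% of tested genes, against 31.8% on the higher side. The difference was -0.71 to -0.76 under the 3 other scalings and -0.40 without replicate 3, and the limma adjusted p ran from 0.0309 to 0.246 over all alternatives. Zeb2, the relative of Zeb1 (chromosome 2, 44983632 to 45117395, minus strand), was at 1.30, 1.30 and 1.45 FPKM in the control mice against 1.37, 0.91 and 1.06 in replicates 4 to 6. Replicate 4 lay inside the control range, and the log2 difference was -0.16 ± 0.13 (SE, limma adjusted p = 0.382). Zeb2 shares exon sequence with the opposite-strand gene Zeb2os (0.23 to 0.84 FPKM) and Zeb1 with Gm10125 (0 to 0.05 FPKM). Whether counting used strand is not given in the sources used here, so reads of such pairs may not have been told apart.

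Twist1 and Prrx1 were low in all libraries. Twist1, a basic helix-loop-helix factor (chromosome 12, 33957671 to 33959829, plus strand), was at 0.67, 0.44 and 1.04 FPKM in the control mice against 1.11, 0.38 and 0.53 in replicates 4 to 6. These ranges overlapped widely (ratio of means 0.94, exact two-sided permutation p = 0.8, n = 3 each). Prrx1, a paired-type homeobox gene of mesenchyme (chromosome 1, 163245119 to 163313710, minus strand), was at 0.46, 0.36 and 0.42 FPKM in the control mice against 0.28, 0.10 and 0.22 in replicates 4 to 6. All 3 PGC;Ras;APC FF libraries were below all controls, with a ratio of means of 0.484. Among tested genes 5.47% had this order, but the share among genes as low as Prrx1 was not computed. The separation is therefore not counted as support. Twist1 and Prrx1 were both under the filter. In a fit with no filter on low values Prrx1 had a limma adjusted p of 0.139 and Twist1 of 0.882.

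In PGC;Ras;APC FF the order of mean levels was Cdh1, Epcam, Vim, Snai1, Zeb1, Snai2, Zeb2, Twist1, Cdh2 and Prrx1. In controls it was the same except that Snai2 stood below Zeb2. Neighbours whose libraries overlapped in controls were Epcam and Vim, Snai1 and Zeb1, Snai2 and Twist1, and Twist1 and Cdh2. In PGC;Ras;APC FF, Epcam cleared Vim in all 3 libraries and Snai1 cleared Zeb1. The overlapping neighbours there were Cdh1 and Epcam, Zeb1 and Snai2, Snai2 and Zeb2, Zeb2 and Twist1, and Twist1 and Cdh2.

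**Figure D2:**
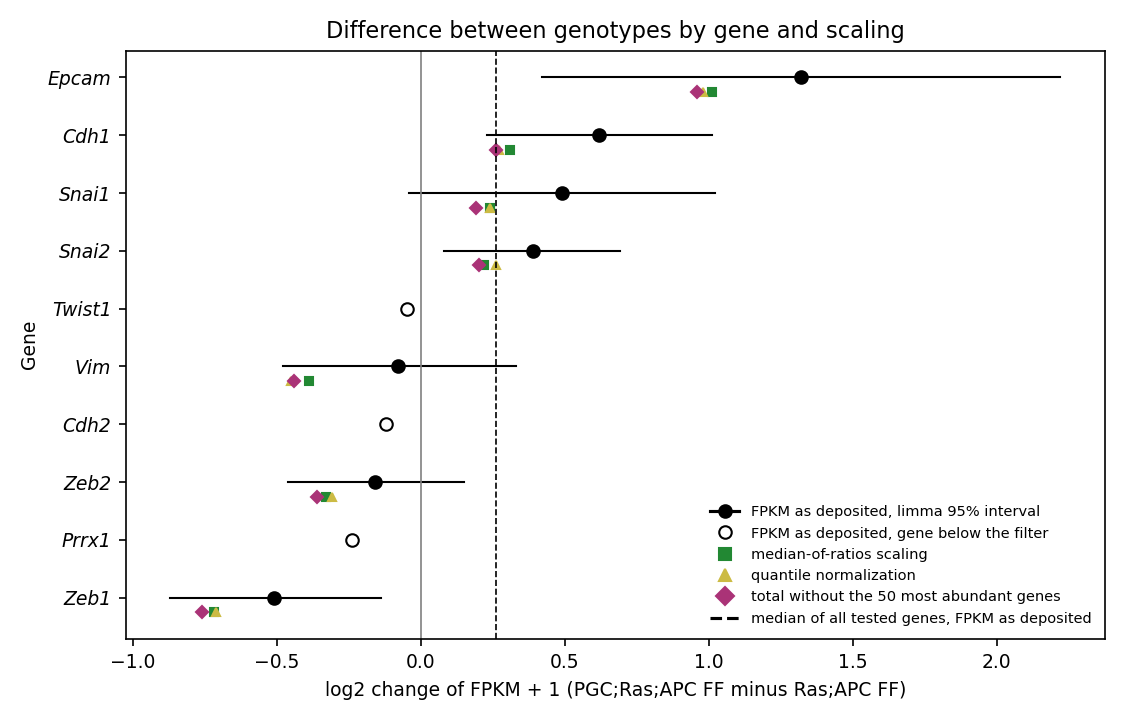
Log2 difference of FPKM + 1 between PGC;Ras;APC FF and Ras;APC FF for each gene, with 95% limma intervals for the 7 tested genes (filled circles), open circles for the 3 genes below the filter, and coloured marks for 3 other scalings. The dashed line is the median of all tested genes, 0.26. Every coloured mark lies left of its filled circle and on the same side of 0.

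Ratios between members within a library do not move with the scaling of that library. The log2 ratio of Cdh2 to Cdh1 was -7.79, -8.22 and -7.66 in controls and -8.70, -9.19 and -8.75 in replicates 4 to 6, a mean difference of -0.99. Cdh1 FPKM thus exceeded Cdh2 FPKM 203 to 298 times in controls, against 417 to 586 times in PGC;Ras;APC FF, with no overlap. The log2 ratio of Vim to Cdh1 was -1.36, -1.90 and -1.12 in controls and -2.02, -2.33 and -2.14 in replicates 4 to 6, a difference of -0.71. The log2 ratio of Cdh1 to Epcam was 0.98, 1.33 and 1.51 against 0.97, 0.92 and -0.21, a difference of -0.71. It rested largely on replicate 6, since the difference was -0.33 without it and replicates 1 and 4 nearly met. For these 3 ratios the exact two-sided permutation p was 0.1, the smallest that 3 against 3 mice allow (0.133 after Benjamini-Hochberg adjustment over the 4 ratios computed). The ratio of Snai1 to Snai2, the fourth, differed by -0.12 with overlapping groups (exact two-sided permutation p = 0.8), and its sign depended on single libraries.

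The summed FPKM of the 6 factors was 9.62, 9.37 and 9.63 in controls and 12.7, 7.46 and 10.9 in replicates 4 to 6, so the groups overlapped. The shares of Snai1 and Zeb1 were not tested. Snai1 made up 39.9%, 38% and 26.1% of that sum in controls, against 49.4%, 44.6% and 53.9% in PGC;Ras;APC FF. Zeb1 made up 26.2%, 28.3% and 35.7% in controls, against 15.3%, 18% and 17.5% in PGC;Ras;APC FF. The ratio of Snai1 plus Snai2 to Zeb1 plus Zeb2, chosen after its values were seen and not tested, was 1.22, 1.17 and 0.671 in controls and 2.4, 2.1 and 2.41 in replicates 4 to 6.

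**Figure D3:**
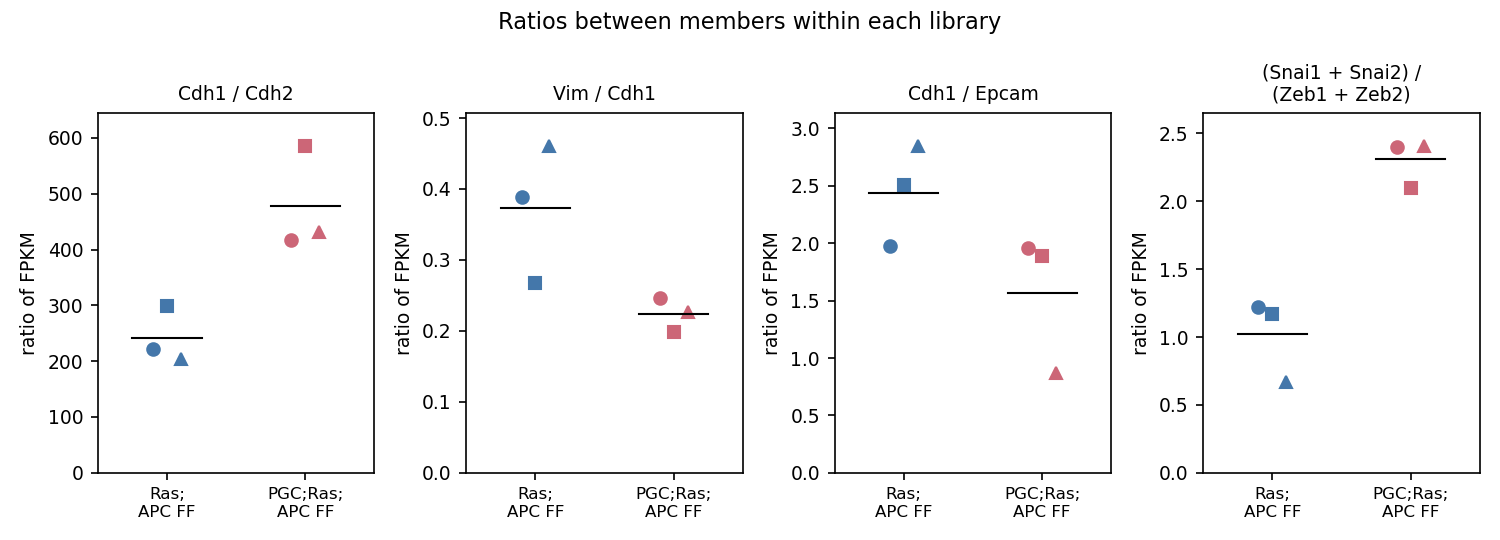
Ratios of FPKM between members in each library (circle, square and triangle for replicates 1, 2 and 3 in blue and 4, 5 and 6 in red, black lines are group means). In each panel the blue and red libraries do not overlap, and the closest are Cdh1 over Epcam in replicates 1 (1.98) and 4 (1.96). The ratio of Snai1 plus Snai2 to Zeb1 plus Zeb2 was chosen after its values were seen and was not tested. The tested ratio of Snai1 to Snai2, whose groups overlapped, is not shown.

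Single libraries carried much of the spread. Control replicate 3 was the highest of all 6 libraries for Zeb1, Zeb2, Cdh2 and Vim and the lowest for Snai1, Snai2, Cdh1 and Epcam. Replicate 5 was the lowest for 6 members, Twist1, Zeb1, Zeb2, Prrx1, Cdh2 and Vim, and the highest for none. Replicate 6 was the highest for Cdh1 and Epcam, and replicate 4 for Snai1, Snai2 and Twist1. Leaving out replicate 3 brought the log2 differences of Snai1, Snai2, Zeb1, Cdh1 and Epcam closer to 0, at 0.35, 0.34, -0.40, 0.56 and 1.14. That of Zeb2 was then -0.13. Without replicate 6 the log2 differences of Snai1, Snai2, Zeb1, Zeb2 and Vim were 0.39, 0.44, -0.55, -0.14 and -0.19.

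Markers of other cell types also differed between the groups. All 11 smooth muscle markers were lower in every PGC;Ras;APC FF library than in every control, with a median log2 difference of -1.13, an order that 5.47% of tested genes showed. None of the 11 passed the test with all libraries, while 9 of 11 were called lower without replicate 6 (median -1.0), where 0.914% of tested genes were. The muscle actins Acta2 and Actg2 were at 578.7 ± 83.9 and 283.1 ± 65.7 FPKM and at 732.1 ± 293.4 and 266.0 ± 64.6, and Tagln, transgelin, at 580.1 ± 207.8 and 278.9 ± 23.96 (limma adjusted p = 0.085 for each). The summed FPKM of the list was 2427 to 4296 in controls and 1103 to 1607 in PGC;Ras;APC FF. It was highest in replicate 3, as Zeb1 was, but lowest in replicate 6, while Zeb1 was lowest in replicate 5. Of 10 enteric neuron and glia markers 5 were tested and 0 passed, with a median of -0.54. Their list summed to 25.4 to 37.4 FPKM in controls, against 17.0 to 26.4 in PGC;Ras;APC FF, and these ranges overlapped. Uchl1, a neuronal hydrolase, was at 11.7 ± 2.93 and 8.95 ± 2.515 FPKM. Sox10, a defining factor of glia named after its values were seen, was at 0.38 to 1.30 FPKM. It reached 1 FPKM only in the controls, so the filter fixed its lower order. Its difference of -0.54 is the median of the list. S100b, also named after its values were seen, was at 0.59 to 1.24 FPKM in controls, against 0.61, 0.61 and 5.42 in replicates 4 to 6. The fibroblast list had a median of 0.19 (-0.12 to -0.19 under the 3 other scalings) and summed FPKM of 347.8 to 385.0 against 380.8 to 471.9. Of the 10 fibroblast markers tested, 7 had a log2 difference above 0 and 3 below. The collagen genes Col1a1 and Col3a1 were at 40.1 ± 6.09 and 66.9 ± 15.7 FPKM and at 58.2 ± 6.59 and 66.6 ± 5.58. The proteoglycan gene Dcn was at 98.2 ± 12.04 and 125.5 ± 43.1 FPKM. Dpt, named after its values were seen, was lower, at 35.4 ± 4.03 and 20.9 ± 6.22 FPKM. Endothelial markers had a median of 0.08 (-0.14 to -0.18 under the 3 other scalings, -0.03 without replicate 6), and Pecam1 was at 13.2 ± 1.82 and 12.6 ± 0.465 FPKM. Markers of leukocytes, cells that are rich in Vim, had a median of 0.66 (0.44 without replicate 6) and summed to 60.6 to 120.8 FPKM in controls and 78.98 to 258.3 in PGC;Ras;APC FF. The part of these cell types in the levels of Zeb1, Prrx1, Cdh2 and Vim was not tested.

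On the epithelial side the keratins stood higher along with Cdh1 and Epcam. Of 11 epithelial markers 0 passed the test and 7 were higher in each of replicates 4 to 6 than in every control, against 42.7% of all tested genes. For 2 of the 7, the claudin genes Cldn3 and Cldn4 (named after their values were seen), no control reached 1 FPKM, so the filter fixed that order. With these 2 claudin genes included, the median log2 difference was 0.81, or 0.37 to 0.49 under the 3 other scalings. It was 0.34 without replicate 6, where Cldn3 and Cldn4 were not tested and 2 of 9 were called higher. Krt8 was at 1017 ± 120 and 1787 ± 288 FPKM, Krt18 at 415 ± 12.4 and 776 ± 276, and Krt19 at 1041 ± 96.4 and 2049 ± 419. Summed FPKM of this list was 2715 to 3204 in controls and 4471 to 6759 in PGC;Ras;APC FF. The desmosomal gene Dsp (35.5 ± 7.78 and 36.9 ± 1.94 FPKM) and the tight junction gene Ocln (20.3 ± 3.29 and 20.0 ± 3.92), chosen after their values were seen, were at nearly the same mean in both groups. Replicate 6, where Epcam was highest, had the lowest sum of parietal cell markers, 1754 FPKM against 7868 to 9761 in controls and 7907 and 8726 in replicates 4 and 5. The part of these other gland cells in the levels of Cdh1 and Epcam was not tested.

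**Figure D4:**
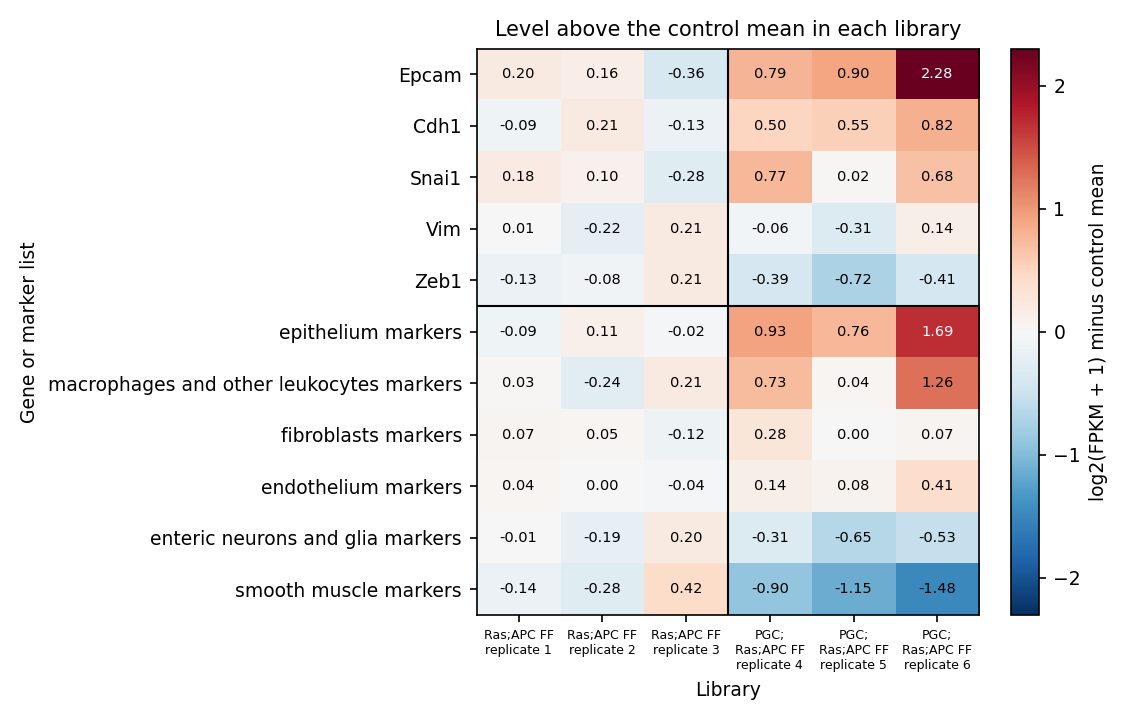
Level of 5 members and of 6 marker lists in each library as log2(FPKM + 1) minus the control mean (for lists, the mean over tested genes). The epithelium list includes Cldn3 and Cldn4, whose controls stayed under 1 FPKM, so the filter fixed their order. The enteric neuron and glia list includes Sox10, which reached 1 FPKM only in controls. Smooth muscle markers lie at -0.90, -1.15 and -1.48 in replicates 4 to 6 and fibroblast markers at 0.28, 0.00 and 0.07, while Zeb1 lies at -0.39, -0.72 and -0.41.

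The partners of the 2 epithelial proteins were mostly on the higher side. Of 11 tested catenin and junction genes 0 passed and 7 were higher in each of replicates 4 to 6 than in every control, where 42.7% of all tested genes were. Their median log2 difference was 0.46, beside 0.26 for all genes, or 0.13 to 0.19 under the 3 other scalings and 0.29 without replicate 6. Ctnnb1, the beta-catenin that binds the E-cadherin tail and also acts in Wnt signalling, was at 98.3 ± 6.82 and 162.2 ± 57.1 FPKM (limma adjusted p = 0.11). Jup, the plakoglobin of desmosomes and adherens junctions, was at 84.9 ± 8.52 and 120.6 ± 12.9 FPKM (limma adjusted p = 0.0909), and Ctnna1, alpha-catenin, at 106.5 ± 14.03 and 135.8 ± 19.4 (limma adjusted p = 0.172). Among 8 tested partners and relatives of Epcam, 0 passed, and all 8 were higher in each of replicates 4 to 6 than in every control, an order that 42.7% of tested genes had and that the filter fixed for 1 of the 8. The median was 0.67, or 0.31 to 0.36 under the 3 other scalings and 0.42 without replicate 6, where 2 of 7 were called higher. The tetraspanins Tspan8 (318.5 ± 17.3 and 508.9 ± 72.3 FPKM) and Cd9 (65.1 ± 2.63 and 143.4 ± 75.3) and the protease inhibitor Spint2 (421 ± 57.1 and 756 ± 271) were its most abundant members. Cldn7, a claudin that binds Epcam, was at 0.99, 0.74 and 0.82 FPKM in the control mice against 13.55, 4.89 and 91.6 in replicates 4 to 6. It was named after its values were seen and is the gene whose order the filter fixed, since no control reached 1 FPKM.

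Other cadherins were few. Only 4 of 19 were tested and 0 passed, with a median log2 difference of 0.31, or 0.07 to 0.13 under the 3 other scalings. Cdh5, of endothelium, was at 5.24 ± 0.546 and 5.36 ± 0.941 FPKM, and Cdh11, of fibroblasts, at 2.70 ± 0.153 and 3.53 ± 1.20. Cdh13, the GPI-anchored T-cadherin, was at 2.56, 2.81 and 2.12 FPKM in the control mice against 5.47, 3.67 and 19.17 in replicates 4 to 6 (limma adjusted p = 0.113), with replicate 6 far above the others.

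Among transcription factors beyond the 6, none of 7 tested genes linked to EMT passed and 6 were higher in each of replicates 4 to 6 than in every control, against 42.7% of all tested genes. For 2 of the 6, Prrx2 and Foxc1 (named after their values were seen), no control reached 1 FPKM, so the filter fixed that order. The median was 0.65, or 0.39 to 0.45 under the 3 other scalings and 0.44 without replicate 6. Sox4 was at 8.31 ± 1.66 and 20.2 ± 13.9 FPKM, Tcf4 at 8.72 ± 0.760 and 13.6 ± 4.13, and Sox9, also a progenitor factor of glands, at 14.4 ± 5.39 and 27.7 ± 20.0 (limma adjusted p = 0.119, 0.111 and 0.257). Prrx2, the relative of Prrx1, was at 0.48, 0.37 and 0.55 FPKM in the control mice against 2.89, 1.05 and 3.03 in replicates 4 to 6, the opposite side from Prrx1. Of 11 tested epithelial transcription and splicing factors 0 passed and 5 were higher in each of replicates 4 to 6 than in every control, near the 42.7% of all tested genes. Their median of 0.21 was -0.06 to -0.11 under the 3 other scalings and 0.17 without replicate 6, where 1 was called higher. Klf4 was at 144.4 ± 25.9 and 144.5 ± 23.7 FPKM, Elf3 at 159.3 ± 7.95 and 236.7 ± 73.8, and Klf5 at 27.7 ± 8.72 and 45.2 ± 14.5.

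TGF-beta signalling is a known inducer of EMT. Of its 12 ligands, receptors and SMADs 0 passed and 3 were higher in each of replicates 4 to 6 than in every control, below the 42.7% of all tested genes. Their median of 0.25 was -0.02 to -0.06 under the 3 other scalings and 0.15 without replicate 6, where 1 was called higher. The ligand gene Tgfb1 was at 8.24, 6.88 and 7.71 FPKM in the control mice against 15.21, 12.19 and 30.31 in replicates 4 to 6 (log2 difference 1.13 ± 0.30 SE, limma adjusted p = 0.085). The receptor gene Tgfbr2 was at 19.5 ± 1.31 and 24.1 ± 6.70 FPKM and the inhibitory Smad6 at 12.6 ± 1.27 and 15.0 ± 1.74. Of 13 tested mesenchymal genes of the programme 0 passed and 6 were higher in each of replicates 4 to 6 than in every control, near the 42.7% of all tested genes. The median was 0.46, or 0.10 to 0.15 under the 3 other scalings and 0.29 without replicate 6. The matrix genes Sparc (73.6 ± 3.88 and 103.2 ± 23.7 FPKM), Spp1 (71.6 ± 47.2 and 155.1 ± 21.5) and Tgfbi (32.2 ± 3.00 and 42.6 ± 8.19) were its most abundant members.

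Genes with the closest pattern were sought for Cdh1, Cdh2 and Snai1 among the tested genes (11856 symbols), by the mean absolute difference of centred log2(FPKM + 1) over the 6 libraries. For Cdh1 they were Nxf1, Pcgf1 and Dsn1 (0.044, 0.046 and 0.050), for Cdh2 Herc6, Plekha3 and Cnst (0.021, 0.024 and 0.031), and for Snai1 Pdgfrl, Scube1 and C1s1 (0.042, 0.051 and 0.064). Cdh2 itself was below the filter, and its 0.36 to 0.65 FPKM leave little range on this scale.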

How the data were processed

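RNA of 6 mouse stomach corpus libraries was analysed from the FPKM table the authors deposited, with 2 decimals a value. STAR, featureCounts and mm10 appear in the submitters' processing notes. Their versions, the annotation and how FPKM was derived were not given in the sources used here. Library depth is unknown, so no counting intervals are given. Members, gene lists and tests were chosen with earlier results of these data known. Genes with at least 1 FPKM in at least 3 libraries (11857 of 18988 rows) were tested as log2(FPKM + 1), which understates changes of low genes. The test was limma 3.58.1 (R 4.3.3, trended eBayes, genotype as the 1 term, two-sided), with Benjamini-Hochberg adjustment over all tested genes and a threshold of 0.05. Of the 10 members 7 were tested. The code was tested on simulated data. Mice are the replicates.

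Named were all members and, from each list, up to 3 tested genes that passed or, failing that, were most abundant by mean FPKM; others are marked. Marker lists for pericytes, mesothelium, adipocytes, chief, parietal and endocrine cells and exocrine pancreas had medians of -0.15, 0.74, -0.80, -0.63, -1.09, -0.73 and -0.77. Without replicate 6 these were -0.33, 0.91, -0.55, 0.15, -0.33, -0.12 and -0.11, so the last 4 rest largely on that library. Of these lists 2 genes passed, Cfd and Adipoq, both lower in PGC;Ras;APC FF. Adipoq reached 1 FPKM only in the controls (3.20, 3.12 and 5.03, against 0.25, 0.05 and 0.00), so the filter fixed its order. Older symbols matched 5 list genes. Coordinates are from GENCODE M21 (GRCm38). Alternatives covered pseudocounts of 0.1 and 0.5, filters, 3 scalings, limma settings and leaving out each library.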

Additional observations from a re-analysis of the deposited data

How the results depend on the processing

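No paired analysis was possible because the replicate numbers 1 to 6 are not shared between the groups. Over all tested genes 13 were called higher and 5 lower. The counts were 29 higher with a pseudocount of 0.1 and 3 higher with no filter on low values. They were 10, 13 and 10 lower after median-of-ratios, quantile and top-50-free scaling, which moved the share of higher calls from 72.2% to 47.4%, 43.5% and 54.5%. Leaving out 1 library gave 0 to 832 higher and 0 to 106 lower, with 0 calls without replicate 1, 2 or 3 (2270, 2516 and 3056 genes at an unadjusted limma p under 0.05), 2 and 3 without replicate 4, 413 and 45 without replicate 5, and 832 and 106 without replicate 6. With genes filtered on all 6 libraries, an alternative added after the data had been seen, leaving out replicate 6 gave 962 and 114. With array weights 3523 were called higher (29.7%) and 369 lower (3.11%), the weights running from 0.133 for replicate 6 to 3.55 for replicate 4. Under these weights Snai2 (0.46), Epcam (0.76), Cdh1 (0.50) and Zeb1 (-0.41) passed (limma adjusted p = 0.0122, 0.0122, 0.0137 and 0.0309). The weight estimation stopped before reaching its tolerance. Apart from that setting and Epcam without replicate 6 in either filter, no member passed under any alternative. Vim ranged from -0.19 to 0.04 when 1 library was left out, and turned to 0.03 without replicate 3 and 0.04 without replicate 5. The log2 ratio of Snai1 to Snai2 ranged from -0.33 to 0.14 when 1 library was left out, with 0.04 without replicate 1 and 0.14 without replicate 5, and was 0.10 with a pseudocount of 1. The cause was not tested for any of these. The other 3 ratios kept their direction, and with 3 mice a group their p could not go below 0.1. When 1 library was left out, the exact two-sided permutation p stayed at 0.1 for Cdh2 to Cdh1. It was 0.1 or 0.2 for Vim to Cdh1 and ran from 0.1 to 0.4 for Cdh1 to Epcam.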
